A study of Mus musculus with 43 samples.

Results

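The paraventricular nucleus (PVN) was compared with the other hypothalamic nuclei captured from the same brains, to describe which genes and gene families set it apart. Its members were the 10 libraries of laser-captured PVN, of 41 libraries that could be matched to a sample label. The comparison libraries were 9 from the arcuate nucleus (ARC), 11 from the dorsomedial hypothalamus (DMH) and 11 from the ventromedial hypothalamus (VMH). All were from adult male C57/BL6 mice of 16 to 19 weeks that lacked the paternal Snord116 cluster (JAX line B6(Cg)-Snord116tm1.1Uta/J), so the deletion was common to every group, and wild-type mice were not analysed here. Some mice had free access to food (fed) and the rest had gone 24 hours without it (fasted). The PVN was represented by 5 fasted and 5 fed mice, the ARC by 4 and 5, the DMH by 5 and 6, and the VMH by 6 and 5. All 10 PVN mice also contributed libraries from other nuclei. Libraries are named by nucleus, state and mouse number (PVN-Fed-125). A further 2 samples labelled PVN, of mice 85 and 92, were not analysed here. Depth, estimated from the step between low CPM values, was 1.94 to 8.23 M reads (M, 1e6) per library with a median of 4.10 M, and the PVN median was 4.20 M. Of the low values, 97.2% to 98.4% per library were whole multiples of the step (within 0.02 of a multiple), and positive values under 0.01 CPM, smaller than a step, also occurred.

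The PVN lies beside the dorsal part of the third ventricle and holds the magnocellular and parvocellular neuroendocrine neurons of the hypothalamus. Magnocellular neurons send vasopressin and oxytocin to the posterior pituitary, and parvocellular neurons release corticotropin-releasing hormone into the portal blood to drive the pituitary-adrenal axis. Other PVN neurons project to the brainstem and spinal cord and, through the melanocortin-4 receptor, receive satiety signals from the ARC. PVN neurons are mostly glutamatergic, whereas many ARC and DMH neurons are GABAergic.

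Expression was given as CPM, read counts per 1e6 reads of the library. A log2 difference below is the PVN mean minus the mean of the ARC, DMH and VMH means on log2(CPM + 0.5), each of those nuclei weighted equally, with batch and nutritional state as covariates. A gene was called enriched or depleted at an adjusted p under 0.1 (limma, Benjamini-Hochberg over 10077 genes) and a log2 difference of at least 1 in size. Errors of log2 differences are standard errors (SE). Genes were placed on GRCm38 with the GENCODE M21 annotation.

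The captured tissue carried the marker genes of the PVN. Avp (chr2:130580620-130582554), which encodes vasopressin, stood at 395, 692 and 1475 CPM at the lowest, median and highest of the 10 PVN libraries and at 0 to 10.04 CPM in the 31 others. Its median was 2.22 CPM in the ARC, 1.45 CPM in the DMH and 1.899 CPM in the VMH, and its log2 difference was 8.22 ± 0.26 (limma, adjusted p = 8.7e-31). Crh (chr3:19693401-19695396), which encodes corticotropin-releasing hormone, ranged from 14.5 to 126 CPM in the PVN with a median of 28.1 CPM, and from 0 to 6.40 CPM elsewhere. The highest values outside the PVN were in the DMH, with a median of 1.76 CPM, and the log2 difference was 5.17 ± 0.30 (limma, adjusted p = 1.8e-19). Nrn1 (chr13:36725361-36735131), which encodes the neurite-promoting surface protein neuritin, stood at 68.4, 95.4 and 138 CPM in the PVN. It reached 41.2 CPM in the DMH, where its median was 12.5 CPM, but at most 4.12 CPM in the ARC and 3.06 CPM in the VMH. Every PVN library exceeded every other library for all of these markers, which were chosen with earlier results of these data known. Oxt, Trh, Sim1 and Otp were not analysed here.

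**Figure D1:**
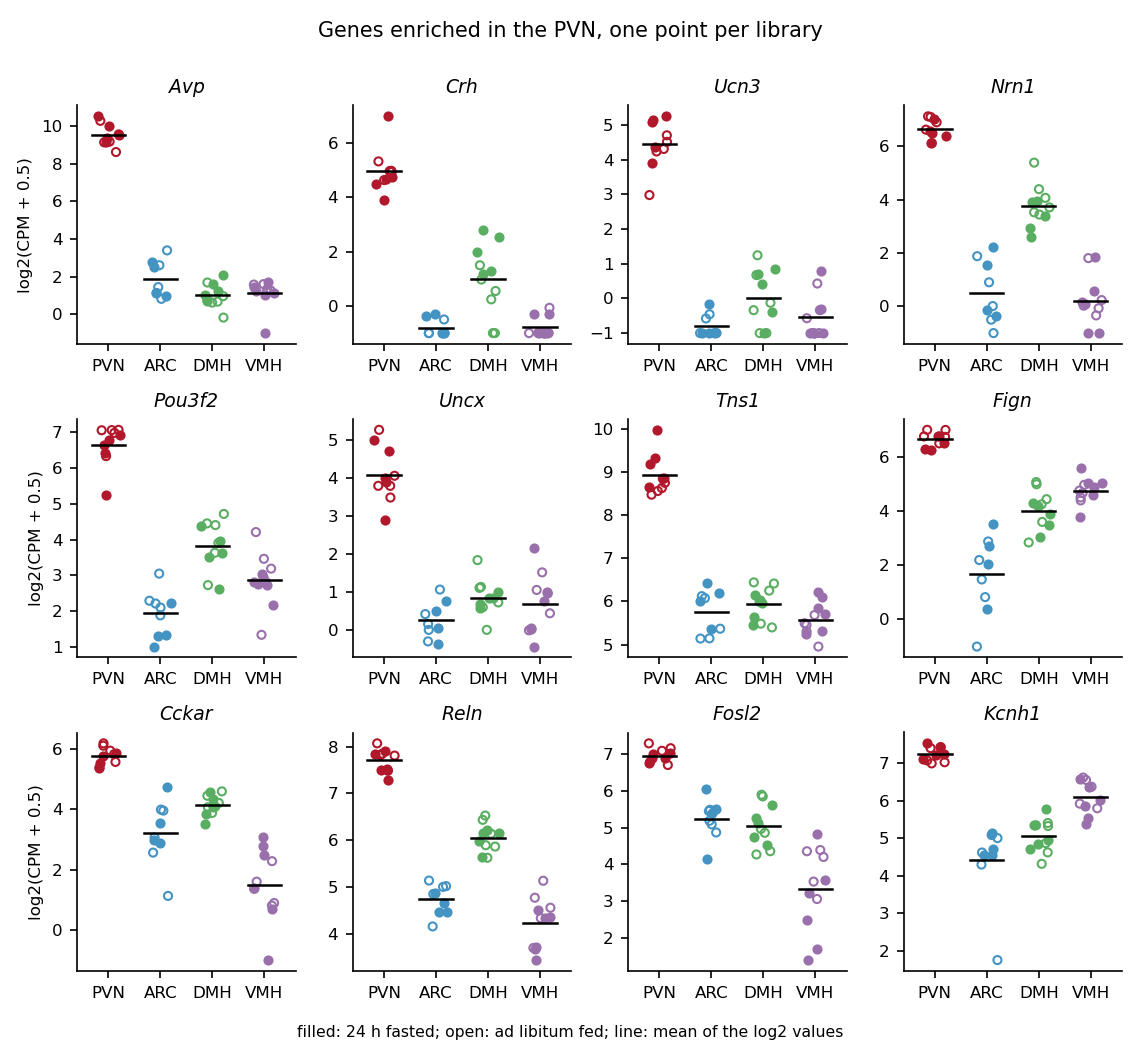
Expression of 12 genes enriched in the PVN, as log2(CPM + 0.5) on the vertical axis, in each library of the PVN, ARC, DMH and VMH. Filled points are fasted mice, open points are fed mice and lines are means. For each gene all 10 PVN points lie above all 31 points of the other nuclei.

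The PVN differed from the mean of the other nuclei in 651 of 10077 genes (6.46%). Of these, 309 (3.07%) were enriched and 342 (3.39%) were depleted. At an adjusted p under 0.1 and any size, 2259 genes (22.4%) differed, 1071 of them higher and 1188 lower. The median log2 difference of all genes tested was -0.014. A gene may differ from the mean because of a single other nucleus, so each pair was also compared. The PVN was above each of the other nuclei in 267 genes (2.65%) and below each in 221 (2.19%), whatever the size of the difference. Of the enriched genes 157 (50.8%) were above each nucleus, and of the depleted genes 128 (37.4%) were below each. The DMH was the closest nucleus to the PVN for 145 of the 309 enriched genes, the ARC for 95 and the VMH for 69. For the depleted genes the closest was the DMH for 112, the ARC for 113 and the VMH for 117. Pair by pair, a log2 difference of at least 1 was called for 257 higher and 381 lower genes against the DMH, 369 and 361 against the ARC, and 546 and 609 against the VMH. In 26 genes (0.258%) all PVN libraries lay above all others, and in 5 (0.0496%) all lay below. In bulk tissue, a lower level from fewer cells of a type and from less RNA per cell cannot be told apart.

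**Figure D2:**
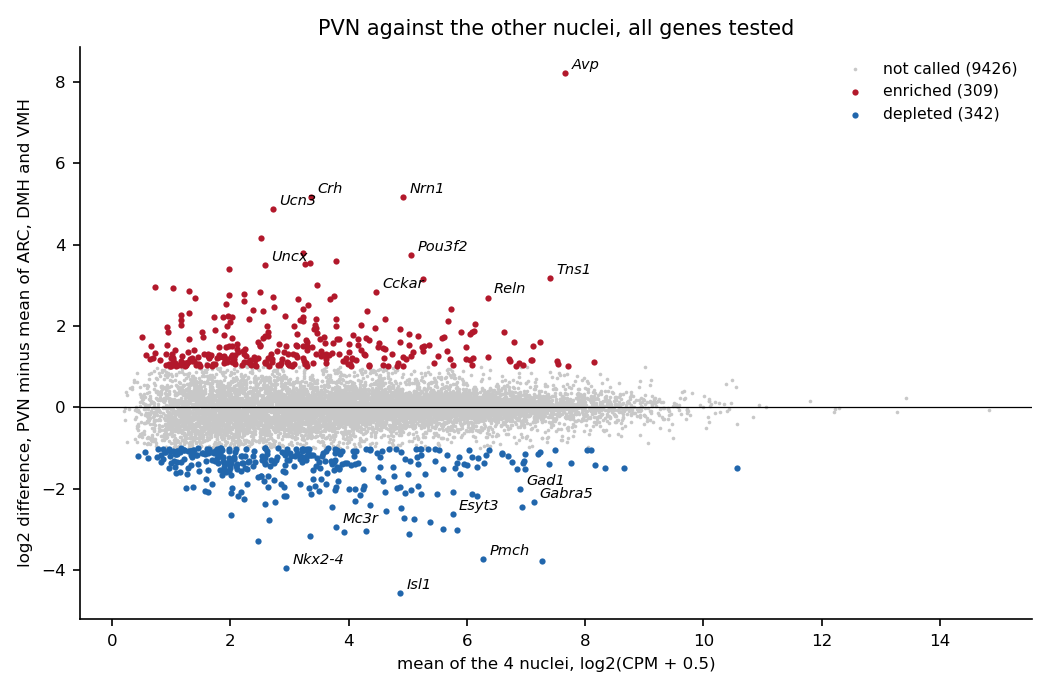
Log2 difference of the PVN from the mean of the other nuclei (vertical axis) against the mean level of the 4 nuclei as log2(CPM + 0.5) (horizontal axis), with 1 point per gene tested. Red points are the 309 enriched genes and blue points the 342 depleted genes. Avp, at 8.22, lies far above all other genes.

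Among peptide genes, the PVN was set apart by Avp, Crh and Ucn3. Ucn3, which encodes urocortin 3, a CRH-family ligand of the type 2 CRH receptor, stood at 7.37, 21.1 and 37.4 CPM in the PVN and did not exceed 1.86 CPM elsewhere. Its log2 difference was 4.88 ± 0.29 (limma, adjusted p = 4.4e-19). Of 13 other hypothalamic neuropeptide genes tested, 3 were enriched and 4 depleted, beside 3.07% and 3.39% of all genes. Penk, the proenkephalin gene, was above each nucleus, with a median of 164 CPM in the PVN against 130 CPM in the DMH and about 60 CPM in the ARC (60.2) and the VMH (61.3). Its PVN and DMH libraries overlapped, its log2 difference from the DMH was only 0.44, and its difference from the mean, 1.14, became 0.93 without the ARC, which ended the call. Bdnf, a neurotrophin gene, was higher than in the ARC and DMH by 3.21 and 1.44, whereas the VMH held a median of 35.9 CPM against 20.7 CPM in the PVN. Without the ARC Bdnf lost its call (0.46, limma, adjusted p = 0.28).

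The depleted peptide genes were those of the neighbouring nuclei, and most were low in the PVN as in 1 or more of the others. Pmch, the melanin-concentrating hormone gene, had a median of 0.917 CPM in the PVN, 223 CPM in the DMH and 26.7 CPM in the VMH, and 0.829 CPM in the ARC. Hcrt (hypocretin) and Npvf (RFamide-related peptide) were high in the DMH alone, with medians of 91.9 and 69.7 CPM there and 0.476 and 0.260 CPM in the PVN. Npy (neuropeptide Y) was high in the ARC alone, where the lowest library was at 194.5 CPM. With the DMH left out, Hcrt lost its call (-0.44, limma, adjusted p = 0.58), and Npvf fell below the filter on low values. With the ARC left out, Npy lost its call (-0.18, limma, adjusted p = 0.79).

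Of 11 transcription factors of the PVN lineage tested, 7 were enriched (63.6%, beside 3.07% of all genes) and 0 depleted. Their median log2 difference was 2.13. The list was drawn up with earlier results of these data known, so its share is a description and not a test. Sim1 and Otp were not among those tested, and Zic1 and Foxp2 are also in the thalamus and zona incerta list below. Pou3f2 encodes a POU-domain factor needed for the development of vasopressin, oxytocin and CRH neurons. Its CPM was 37.2, 114 and 133 at the lowest, median and highest of the PVN libraries, against medians of 3.80 in the ARC, 14.5 in the DMH and 6.61 in the VMH. No other library exceeded 25.8 CPM, and the log2 difference was 3.73 ± 0.19 (limma, adjusted p = 8.0e-22). Uncx, a paired-type homeobox gene, stood at 6.996, 14.9 and 37.8 CPM in the PVN and at no more than 3.98 CPM elsewhere. Its log2 differences from the ARC, DMH and VMH were alike at 3.83, 3.24 and 3.40. The zinc-finger genes Zic1 and Zic2, the POU gene Pou3f4 and the forkhead gene Foxp2 were also above each nucleus, with log2 differences of 2.67, 2.32, 2.21 and 2.13, although their libraries overlapped with others. Foxp2 was closest to the DMH, with medians of 109 CPM in the PVN and 52.9 CPM in the DMH. Sim2, a bHLH-PAS gene related to Sim1, was called against the mean (1.73 ± 0.43) but not against the DMH. Among the uncalled members, Foxp1 was at 0.61, Rorb at -0.02, Pou3f3 at -0.70 and Mkx at -0.72, and of these Foxp1 passed the adjusted p as higher and Pou3f3 as lower.

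Factors of the tuberal hypothalamus, the region that gives rise to the other nuclei, showed the opposite pattern. Of 18 tested, 9 were depleted (50%, beside 3.39% of all genes) and 1 enriched (5.56%, beside 3.07%). These factors too were listed with earlier results of these data known. The list had a median log2 difference of -1.0002, and 3 members were below each nucleus. Isl1 encodes a LIM-homeodomain factor of ARC and other tuberal neurons. It stood at 0.189, 0.419 and 3.17 CPM in the PVN, against medians of 76.6 in the ARC, 31.6 in the DMH and 11.99 in the VMH. The lowest library outside the PVN held 3.67 CPM, so the groups did not overlap, and the log2 difference was -4.57 ± 0.24 (limma, adjusted p = 8.0e-22). Nkx2-4, a homeobox gene related to Nkx2-1, was at 0 in the median PVN library and at most 0.382 CPM, whereas the others ranged from 1.41 to 23.4 CPM. Sox14 (-3.30) was likewise below each nucleus. Bsx, Gsx1 and Hmx2 were low in the PVN and in the VMH alike, with medians of 0.109, 0 and 0 CPM in the PVN, and were lower than in the ARC and DMH by 2.47 to 4.69. Dlx1 and Dlx5, homeobox genes of GABAergic neurons, were lower than in the ARC and DMH but higher than in the VMH, by 2.13 and 1.44. Dlx1 lost its call when PVN-Fast-86, PVN-Fed-125, PVN-Fed-313, VMH-Fast-86 or VMH-Fed-308 was left out (-0.996 to -0.947), and also without the ARC (-0.49) or the DMH (-0.0069). Dlx5 lost its call without the ARC (-0.81) or the DMH (-0.43), and Dlx6 without the DMH (-0.83). The enriched gene was Nhlh2, a bHLH factor of peptidergic neurons, with a median of 21.4 CPM in the PVN against 10.9 CPM in the ARC, the closest nucleus.

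**Figure D3:**
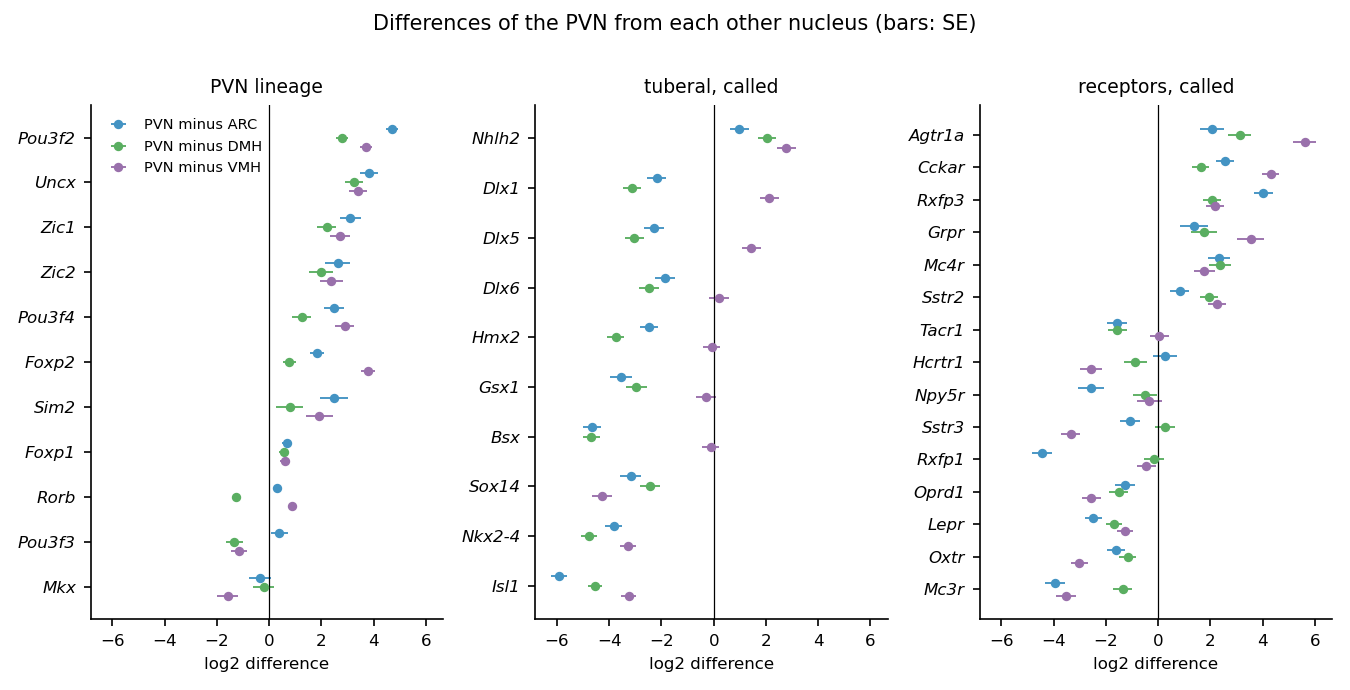
Log2 difference of the PVN (horizontal axis) from the ARC (blue), DMH (green) and VMH (purple) for factors of the PVN lineage, for called tuberal factors and for called receptor genes. Points are estimates and bars are SE. Uncx is near 3.5 against every nucleus, whereas Dlx1 is below the ARC and DMH and above the VMH.

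The 5′ flanks of enriched genes are shown for Avp, the gene with the greatest difference, for the lineage factors Pou3f2 and Uncx, and for Tns1 and Rufy4, neighbours that were both enriched. Sequences are the 250 bases before the transcription start from RefSeq (GRCm38.p6), 5′ to 3′ on the strand of the gene. They were searched on both strands for the POU octamer ATGCAAAT, the cAMP response element TGACGTCA, the homeodomain core TAATTA and the central midline element TACGTG of bHLH-PAS factors. Matches are in capitals, and no match overlapped another.
Avp (chr2:130582589-130582838, minus strand): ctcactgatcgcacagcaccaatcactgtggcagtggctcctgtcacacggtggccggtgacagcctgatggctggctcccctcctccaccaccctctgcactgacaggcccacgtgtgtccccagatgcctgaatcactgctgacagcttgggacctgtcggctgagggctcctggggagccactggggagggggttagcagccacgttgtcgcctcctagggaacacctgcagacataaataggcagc
Pou3f2 (chr4:22488367-22488616, minus strand): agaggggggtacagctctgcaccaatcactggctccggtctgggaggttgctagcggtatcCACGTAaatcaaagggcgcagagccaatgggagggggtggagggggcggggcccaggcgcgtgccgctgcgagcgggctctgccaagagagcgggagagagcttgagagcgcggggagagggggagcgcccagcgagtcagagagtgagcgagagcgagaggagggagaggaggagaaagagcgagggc
Uncx (chr5:139543648-139543897, plus strand): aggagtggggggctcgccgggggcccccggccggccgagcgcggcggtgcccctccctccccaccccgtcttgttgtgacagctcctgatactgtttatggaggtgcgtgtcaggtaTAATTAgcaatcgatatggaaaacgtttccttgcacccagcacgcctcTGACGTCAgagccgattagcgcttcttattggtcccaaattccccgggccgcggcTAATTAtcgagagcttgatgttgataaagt
Tns1 (chr1:74124549-74124798, minus strand): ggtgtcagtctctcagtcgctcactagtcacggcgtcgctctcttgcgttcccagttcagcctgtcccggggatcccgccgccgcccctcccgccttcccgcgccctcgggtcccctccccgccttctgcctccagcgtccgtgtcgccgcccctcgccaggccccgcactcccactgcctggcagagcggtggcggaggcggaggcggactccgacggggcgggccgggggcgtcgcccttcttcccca
Rufy4 (chr1:74125291-74125540, plus strand): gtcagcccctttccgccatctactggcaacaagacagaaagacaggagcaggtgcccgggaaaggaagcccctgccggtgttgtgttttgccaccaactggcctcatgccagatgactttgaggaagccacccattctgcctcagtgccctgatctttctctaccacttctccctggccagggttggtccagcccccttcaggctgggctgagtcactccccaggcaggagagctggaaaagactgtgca

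The Pou3f2 flank held a central midline element on the opposite strand, starting at position -189, where -1 is the base before the start. The Uncx flank held a cAMP response element at -85 and a homeodomain core at -133 and at -30. The flanks of Avp, Tns1 and Rufy4 held 0 of the letters searched. Flanks were found for 212 of the 309 enriched genes and for 7195 of the genes tested with a symbol. A gene was counted when any of its flanks held a match. The octamer was held by 0.472% of the enriched genes with flanks and 1.61% of the tested ones. The shares were 2.83% and 2.99% for the cAMP response element and 2.83% and 3.14% for the homeodomain core. For the midline element they were 2.83% and 3.78%. Among all 32851 RefSeq flanks of this length, counted per flank and not per gene, the shares were 1.60%, 1.55%, 4.84% and 2.72%. These are descriptions of letters and not of binding.

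Tns1 and Rufy4 lie head to head on chromosome 1, with annotated starts 1092 bases apart. Tns1 encodes tensin 1, which links integrins to actin. It stood at 354, 443 and 1004 CPM in the PVN and at 30.5 to 86.4 CPM elsewhere, and its log2 difference of 3.17 ± 0.12 had the smallest adjusted p after that of Avp (limma, 4.1e-27). Rufy4, which encodes a RUN- and FYVE-domain protein of autophagy, stood at 4.83, 12.7 and 79.4 CPM in the PVN. It was at or near 0 in most other libraries but reached 5.64 CPM in the ARC.

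Receptor genes for hormones and peptides divided in both directions. Of 35 tested, 7 were enriched and 9 depleted, beside 3.07% and 3.39% of all genes. Cckar, the type A cholecystokinin receptor that mediates satiety signals, stood at 40.9, 55.5 and 72.6 CPM in the PVN and at no more than 26.3 CPM elsewhere, with a log2 difference of 2.82 ± 0.27 (limma, adjusted p = 6.5e-12). Agtr1a, an angiotensin II receptor, had a median of 27.9 CPM in the PVN, 6.43 in the ARC, 3.52 in the DMH and 0 in the VMH, and 1 or more ARC libraries overlapped with the PVN, up to 69.6 CPM. Rxfp3, the relaxin-3 receptor, stood at 21.4 to 49.2 CPM in the PVN and reached 23.5 CPM in the VMH. Mc4r, the melanocortin-4 receptor, had a median of 9.25 CPM in the PVN against 1.21 in the ARC, 1.25 in the DMH and 2.50 in the VMH, and its log2 difference was 2.16 ± 0.35 (limma, adjusted p = 2.8e-06). Grpr, the gastrin-releasing peptide receptor, was also above each nucleus (2.23). Sstr2, a somatostatin receptor (1.67), was called against the mean but not against the ARC, and the remaining enriched member of the list was the ligand gene Bdnf.

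The other melanocortin receptor and the leptin receptor were low in the PVN. Mc3r stood at 0, 1.17 and 3.80 CPM in the PVN, against medians of 27.0 in the ARC, 20.7 in the VMH and 4.97 in the DMH, and its log2 difference was -2.95 ± 0.31 (limma, adjusted p = 5.8e-11). Lepr had a median of 5.31 CPM in the PVN, 31.9 in the ARC, 20.2 in the DMH and 15.01 in the VMH. Oxtr, the oxytocin receptor (-1.94), and Oprd1, the delta opioid receptor (-1.77), were also below each nucleus. Rxfp1, Sstr3, Npy5r, Hcrtr1 and Tacr1 were depleted against the mean, at -1.69 to -1.03, but not below each nucleus. Of these, Sstr3 lost its call without the VMH (-0.42, limma, adjusted p = 0.55). Npy5r lost its call without PVN-Fast-305 or PVN-Fast-86 (-0.997 and -0.947), or without the ARC (-0.43). Hcrtr1 lost it without any of 7 libraries (ARC-Fast-100, DMH-Fast-86, PVN-Fast-100, PVN-Fast-305, PVN-Fast-86, PVN-Fed-125 and PVN-Fed-313, at -0.9996 to -0.877), or without the VMH (-0.30). Tacr1 also lost it without any of 7 (ARC-Fast-86, ARC-Fed-111, PVN-Fast-305, PVN-Fed-111, PVN-Fed-125, VMH-Fed-308 and VMH-Fed-313, at -0.996 to -0.789), or without the ARC (-0.78) or the DMH (-0.75).

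**Figure D4:**
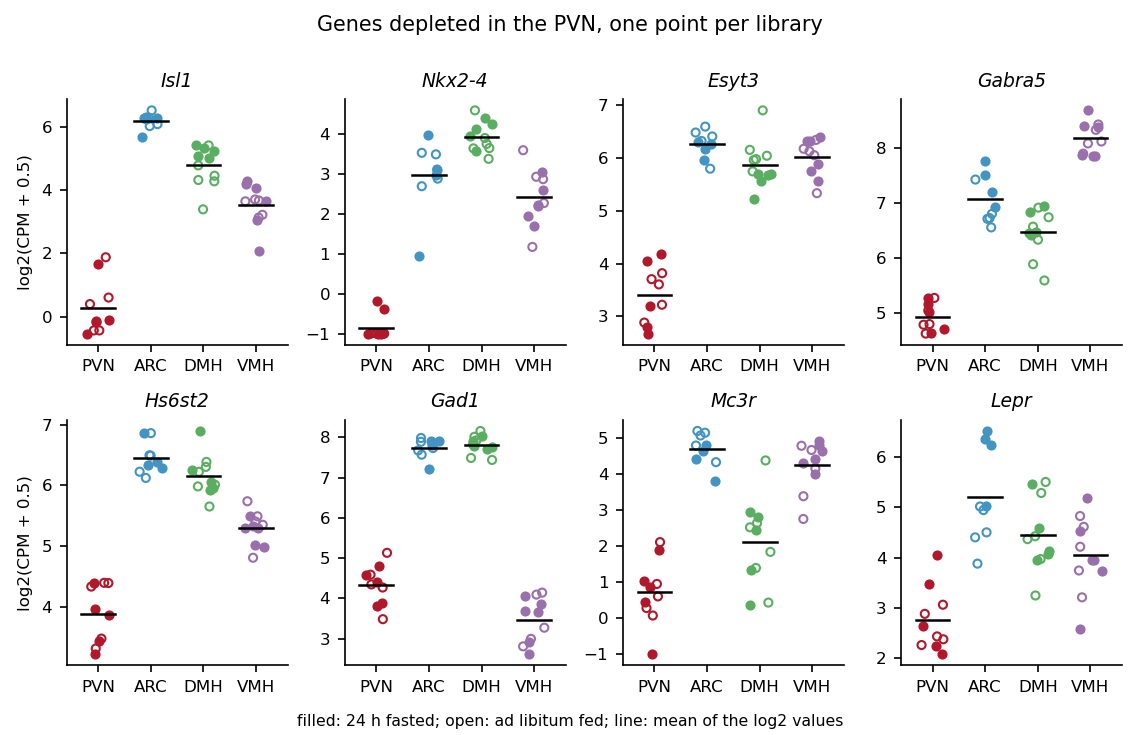
Expression of 8 genes depleted in the PVN, as log2(CPM + 0.5) on the vertical axis, in each library of the 4 nuclei, with fasted mice as filled and fed mice as open points and lines at the means. Isl1, Nkx2-4, Esyt3, Gabra5 and Hs6st2 do not overlap with the other nuclei, and Gad1 is lower in the VMH than in the PVN.

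Of 11 transmitter genes of GABA, glutamate and monoamine neurons, 2 were enriched and 2 depleted (18.2% each), beside 3.07% and 3.39% of all genes. The depleted genes, Gad1 and Slc32a1, were low in the PVN against the ARC and DMH and not against the VMH. Gad1, which encodes a GABA-synthesizing enzyme, had a median of 20.3 CPM in the PVN, 224 CPM in the ARC, 226 CPM in the DMH and 12.2 CPM in the VMH. It was lower than in the ARC and DMH by 3.40 and 3.51 on the log2 scale but higher than in the VMH by 0.85. Slc32a1, the vesicular GABA transporter, had the same order of medians, at 17.4, 104, 130 and 5.34 CPM, and lost its call without the ARC (-0.76) or the DMH (-0.59). Slc17a6, the vesicular glutamate transporter of hypothalamic neurons, stood at 235 to 448 CPM in the PVN. It was higher than in the ARC and DMH by 1.65 and 0.91 and lower than in the VMH by 0.74, and its difference of 0.61 from the mean was not called. Th, tyrosine hydroxylase, was called enriched (1.38) although its PVN median of 40.3 CPM lay below those of the ARC (45.8) and DMH (57.0). The VMH, at a median of 1.36 CPM, made the difference, and without the VMH its value was -0.31 (limma, adjusted p = 0.17). Nos1, neuronal nitric oxide synthase, was above each nucleus at 135 to 229 CPM, and at 1.02 its difference sat at the size threshold. It moved to 0.982 to 0.997 and lost its call without ARC-Fed-125, ARC-Fed-308, PVN-Fast-100, PVN-Fast-305 or PVN-Fed-111, and to 0.78 without the ARC.

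Of 10 GABA-A receptor subunit genes, 2 were depleted, beside 3.39% of all genes, and 0 enriched. Their median log2 difference was -0.62, and 2 of the 10 were positive. Gabra5, the alpha-5 subunit gene of extrasynaptic receptors, stood at 24.0, 29.5 and 38.1 CPM in the PVN, against medians of 122 in the ARC, 88.7 in the DMH and 279 in the VMH. No PVN library reached the lowest of the others, 47.6 CPM, and the log2 difference was -2.32 ± 0.10 (limma, adjusted p = 2.0e-25). Gabre, the epsilon subunit gene, was lower than in the ARC and DMH by 2.78 and 1.56 but higher than in the VMH by 0.89. It lost its call without the ARC (-0.33, limma, adjusted p = 0.19) or the DMH (-0.94). Of 26 metabotropic glutamate, acetylcholine and serotonin receptor genes, 5 were depleted (19.2%) and 1 enriched (3.85%), beside 3.39% and 3.07% of all genes. Grm5, a group I metabotropic glutamate receptor gene, was below each nucleus (-1.36), whereas the muscarinic receptor genes Chrm1 and Chrm5 (-1.54 and -2.44) were low against the DMH and VMH and not against the ARC. The enriched receptor was Chrm2, another muscarinic receptor gene, at 32.4 to 53.7 CPM in the PVN and up to 42.8 CPM in the DMH. The ionotropic receptor gene Grin3a, an NMDA receptor subunit gene, was above each nucleus (1.18), and Grik2, a kainate receptor subunit gene, was below each (-1.09). At the size threshold, Grm5 (-0.93), Chrm1 (-0.94) and Grik2 (-0.98) lost their calls without the VMH, and Grin3a (0.85) without the ARC.

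The other depleted genes with no overlap were Esyt3 and Hs6st2. Esyt3, an extended synaptotagmin that tethers the endoplasmic reticulum to the plasma membrane, stood at 5.87, 10.2 and 17.5 CPM in the PVN and at 37.0 CPM or more in every other library. Its differences from the ARC, DMH and VMH were alike at -2.83, -2.44 and -2.61. Hs6st2, a heparan sulfate sulfotransferase gene, stood at 8.89, 14.6 and 20.7 CPM in the PVN and at 27.6 CPM or more elsewhere (-2.09 ± 0.13, limma, adjusted p = 1.4e-18). Another sulfotransferase gene of this pathway, Hs3st4, was also below each nucleus (-2.14), although its libraries overlapped with those of the ARC and DMH.

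Of 59 genes with potassium channel symbols, 4 were enriched (6.78%) and 3 depleted (5.08%), beside 3.07% and 3.39% of all genes. The antisense gene Kcnmb4os2 was 1 of the enriched. Kcnh1, an ether-a-go-go channel gene, was above all other libraries, at 126, 149 and 183 CPM in the PVN and at most 97.3 CPM elsewhere, with the VMH closest (difference 1.16). Kcnj12, an inward rectifier gene, and Kcnmb4, a subunit gene of calcium-activated channels, were above each nucleus (2.18 and 2.01). Kcnmb4 overlaps Kcnmb4os2, and reads of such a pair may be shared. Trpc5, a cation channel gene, lay above all other libraries (1.17), at 184 CPM or more against no more than 167 CPM, and its call was lost without the VMH (0.90).

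Of 19 semaphorin, plexin and neuropilin genes, 5 were enriched (26.3%, beside 3.07% of all genes) and 0 depleted, with a median log2 difference of 0.13. At any size 8 passed the adjusted p as higher and 2 as lower, beside 1071 and 1188 of all 10077 genes. The semaphorin genes Sema3e, Sema3c and Sema7a (1.84, 1.67 and 1.38) and the receptor gene Plxnd1 (1.28) were above each nucleus. Of 40 synaptic adhesion genes, 6 were enriched (15%) and 3 depleted (7.5%), beside 3.07% and 3.39% of all genes. Nxph4, which encodes a secreted ligand of alpha-neurexins, had a median of 21.7 CPM in the PVN against 5.34 in the DMH and 0 in the ARC, and 1 or more DMH libraries overlapped, up to 51.0 CPM. Cntnap3, a contactin-associated protein gene, was above each nucleus (2.67), and Nptx2, a pentraxin gene of excitatory synapses, was below each (-3.05). Reln, which encodes the matrix protein reelin, stood at 155, 224 and 268 CPM in the PVN and at no more than 91.5 CPM elsewhere, with the DMH closest and a log2 difference of 2.70 ± 0.13 (limma, adjusted p = 1.5e-23). The collagen gene Col6a3 (-2.76) and the laminin gene Lama1 (-2.01) were below each nucleus. Of the BMP antagonist genes, Chrdl1 and Nog (2.69 and 1.85) were enriched and above each nucleus, whereas Grem1 (-1.45) was depleted.

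Among the remaining genes with no overlap, Dnah8, an axonemal dynein gene, stood at 18.4 to 37.4 CPM in the PVN and at no more than 13.4 CPM elsewhere. Fign, a microtubule-severing enzyme gene, stood at 74.7 to 126.8 CPM against at most 47.8 CPM, with the VMH closest. Fosl2, an AP-1 factor gene, stood at 104 to 156 CPM against at most 65.2 CPM, and Palm3, a paralemmin gene, at 16.3 to 51.4 CPM against at most 12.8 CPM. Gm11892, a gene model with no known role, stood at 2.22 to 14.6 CPM against at most 2.06 CPM. The basic helix-loop-helix and PAS family held 6 enriched (27.3%, beside 3.07% of all genes) and 0 depleted genes of 22. It was split at any size, since 7 members passed the adjusted p as higher and 5 as lower. Of all 10077 genes, 1071 passed as higher and 1188 as lower. The median log2 difference of the family was -0.0069. Its members Neurod1 and Neurod2, factors of neuronal differentiation, were above each nucleus (2.61 and 2.86).

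Genes of prohormone processing and dense-core granules encode the machinery that packs the products of Avp and Crh. Of 24 tested, 0 were enriched (beside 3.07% of all genes) and 2 depleted (8.33%, beside 3.39%), with a median log2 difference of -0.06. A list of this size would hold few calls at those shares. At any size the list was split, since 7 passed the adjusted p as higher and 8 as lower, beside 1071 and 1188 of all 10077 genes. Among the higher were Scg2, a granin gene, at 0.66 ± 0.06, and Vgf, a neuropeptide precursor gene, at 0.82 ± 0.15. The depleted members were Tmem35a (-1.35), which lost its call without the VMH (-0.65), and Sytl4 (-1.22), an effector of Rab27 in granule exocytosis. Of 11 genes of protein folding and entry into the endoplasmic reticulum, 8 were higher at an adjusted p under 0.1. Of all 10077 genes, 1071 were higher at that threshold. The median log2 difference of the list was 0.46. Its only call, beside 3.07% of all genes enriched, was Creb3l2 (1.39), a transmembrane transcription factor gene of the secretory pathway. Creb3l2 was not called against the ARC and lost its call without the VMH (0.86).

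**Figure D5:**
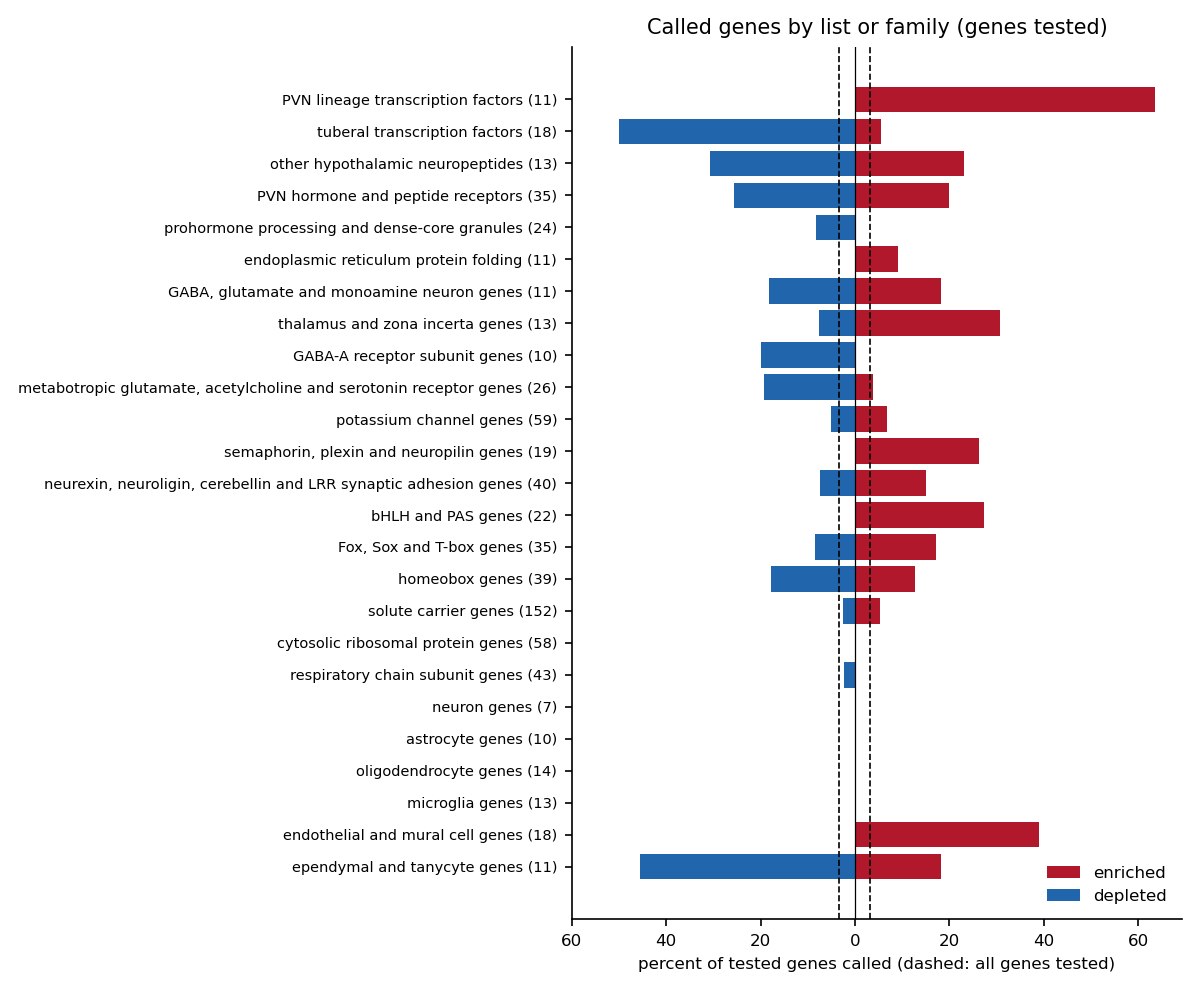
Percentage of tested genes called enriched (red, to the right) or depleted (blue, to the left) in each list or family, with the number tested in parentheses and dashed lines at the 3.07% and 3.39% of all genes. Factors of the PVN lineage have only enriched calls, 7 of 11, and 9 of 18 tuberal factors are depleted. The lists were chosen with earlier results of these data known.

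Of 58 cytosolic ribosomal protein genes 0 were called, with log2 differences of -0.40 to 0.28, although 9 passed the adjusted p as higher and 0 as lower, and of 43 respiratory chain genes only Cox6a2, a muscle-type subunit gene, was depleted (-2.65). Of 31 imprinted genes, 0 were called, although 7 passed the adjusted p as higher and 6 as lower, beside 1071 and 1188 of all 10077 genes. Of all genes, 3.07% were called enriched and 3.39% depleted.

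Markers of vessels moved with the PVN, and their part in the other differences was not tested. Of 18 endothelial and mural cell genes, 7 were enriched (38.9%, beside 3.07% of all genes) and 0 depleted (beside 3.39%), with a median log2 difference of 0.87. Their summed level was 413 to 818 CPM in the PVN, 203 to 276 in the ARC, 256 to 551 in the DMH and 249 to 344 in the VMH. The endothelial genes Flt1 (1.21), Kdr (1.30), Cdh5 (1.40), Cldn5 (1.07) and Slco1a4 (1.52) and the pericyte gene Abcc9 (1.52) were above each nucleus. The smooth muscle gene Acta2 was at -0.58. Cldn5 lost its call without PVN-Fed-111 or PVN-Fed-127 (0.99 and 0.97). In the fed libraries alone Flt1, Kdr and Ly6a lost theirs. Plxnd1 and Igfbp7 (1.49) are also expressed in endothelium.

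Of 10 astrocyte, 6 oligodendrocyte precursor, 13 microglial and 7 neuronal genes tested, 0 were called in either direction. Lists of this size would hold few calls at the 3.07% and 3.39% of all genes. At any size, 3 of the neuronal genes passed the adjusted p as higher and 3 as lower, and 1 and 1 of the astrocyte genes. Of all 10077 genes, 1071 passed as higher and 1188 as lower. The 14 oligodendrocyte genes had a median log2 difference of -0.55 and 0 calls, although 7 passed the adjusted p as lower. Their sum was 456 to 801 CPM in the PVN, 357 to 969 CPM in the ARC, 569 to 1829 CPM in the DMH and 1358 to 2101 CPM in the VMH. The PVN median of 610 CPM lay above that of the ARC, 505 CPM. Ependymal and tanycyte genes had 5 depleted and 2 enriched of 11, beside 3.39% and 3.07% of all genes. Of these Gpr50, Scn7a, Mia, Crym and Col23a1 were at -3.03 to -1.16. Lhx2, also a forebrain homeobox gene, was at 2.42 and 1700012B09Rik, an ependymal marker, at 1.36. Of the 11, 2 were below each nucleus and 0 above each. Gpr50 was low in the VMH too, at 0 to 5.48 CPM against 0.807 to 6.61 CPM in the PVN. Col23a1, a collagen gene, was high in the ARC alone and lost its call without it (-0.44, limma, adjusted p = 0.37). Of 8 leptomeningeal and fibroblast genes, Lyve1 was enriched (1.24) and Lum, the lumican gene, depleted (-1.19). The sum of the list was 78.3 to 140 CPM in the PVN and 40.1 to 537 CPM in the DMH, where the median was 79.1 CPM. In DMH-Fed-92, Igf2 and Slc6a13 stood at 329.5 and 62.66 CPM, against at most 35.48 and 4.98 CPM in the other DMH libraries. Lyve1, a hyaluronan receptor gene, lost its call without PVN-Fast-86 (0.95) or the VMH (0.96). Beside 3.39% and 3.07% of all genes, 9 of 15 reference markers of the ARC, DMH and VMH were depleted (60%) and 2 enriched (13.3%). Among them Crabp1, a retinoic acid-binding protein gene (-2.99), lost its call without the ARC (-0.78), and the orphan receptor gene Gpr149 (-1.68) without the VMH (-0.30). The enriched members were Th and Gpr151, an orphan receptor gene that was above each nucleus (2.26). Of 13 genes of the thalamus and zona incerta, which lie above and beside the PVN, 4 were enriched and 1 depleted. These shares were 30.8% and 7.69%, beside 3.07% and 3.39% of all genes. The enriched members were Zic1, Foxp2, Zic4 and Necab1, a calcium-binding protein gene (1.87), of which Zic1 and Foxp2 are also in the PVN lineage list. The depleted member was Slitrk6 (-1.49).

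Fitted on fed libraries alone, 230 genes were enriched and 281 depleted, and on fasted libraries alone 280 and 296. Of the genes called over all libraries, which these libraries helped to choose, 299 enriched (96.8%) and 329 depleted (96.2%) had the same sign in each of the 3 batches. Avp differed by 8.95, 8.36 and 7.71 in batches 1, 2 and 3, and Isl1 by -4.86, -4.35 and -4.64. Batch 1 held 2 PVN libraries. A test of whether the PVN difference changed with fasting called 1 gene (0.00992%), Sv2c, a synaptic vesicle protein gene. At an unadjusted p under 0.05 it gave 533 genes, where 504 are given by that threshold alone. Sv2c stood at 14.7, 20.7, 24.7, 33.6 and 36.7 CPM in the fed PVN and at 63.0, 86.8, 92.4, 92.6 and 119 CPM in the fasted PVN, with no overlap. Its PVN difference from the other nuclei was -1.40 ± 0.20 in fed and 0.10 ± 0.20 in fasted mice, a change of 1.496 ± 0.28 (limma, adjusted p = 0.029). The call was lost without PVN-Fast-311, PVN-Fast-86 or PVN-Fed-125.

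Some calls rest on genes whose reads may be shared. Zic1 and Zic4 overlap, as do Dlx1 and Dlx1as, Dlx6 and Dlx6os1, and Pmch with Parpbp, and the use of strand in counting is not stated. Gene models that neighbour each other on chromosome 9, among them Gm26870 (-1.49) and Gm10717 (-1.52), and Gm10800 (-1.51) and Gm10801 (-1.48) on chromosome 2, were depleted. Gm10800 ranged from 59.8 to 2465 CPM within the PVN and from 102 to 3529 CPM elsewhere. Whether such models share reads was not tested, and these values are uncertain.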

How the data were processed

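RNA was measured in laser-captured nuclei by amplification (Ovation RNA-Seq V2) and single-end sequencing, with capture and library preparation in 3 batches. The authors mapped reads to GRCm38 with TopHat2, and the submitters' processing notes name CASAVA 1.7, TopHat2 2.0.11, Cufflinks 2.2.1, edgeR and limma. The counting program and its use of strand are not given in the sources used here. The authors removed libraries they judged outliers, so the replicate spread may be understated. They deposited the values as CPM, and no count test was run.

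The table held 10127 genes, 9891 of them paired with a GENCODE M21 symbol. A range of identifiers with 6725 annotated genes, among them Oxt and Sim1, was not analysed here, and CPM summed to 554896 to 689010 per library. Of its columns, 41 were matched to samples by name. The other 2 were not used, since their names say ARC while the samples of those mice (85 and 92) are labelled PVN. Depth was read from the step between low values. Reads of amplified RNA are not independent molecules.

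Genes at 1 CPM or more in at least 9 libraries were kept (10077). The fit used limma 3.58.1 (R 4.3.3; lmFit and a trended eBayes) on log2(CPM + 0.5), a scale that shrinks differences of low genes, with nucleus, state and batch as terms. Nuclei of the same mouse share its number, so mouse was a block with a consensus correlation of -0.0037. Tests were 2-sided with Benjamini-Hochberg adjustment and the study's threshold of 0.1. Fits were tested on simulated data. P values measure the residual spread between libraries, with 1 estimate per gene shared by all nuclei. That spread holds differences between mice together with those of capture and amplification.

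Members and lists were chosen with earlier results of these data known. Named genes were the 15 most enriched and up to 15 most depleted genes with no overlap between libraries and at least 5 CPM on the higher side (22 and 5 met this), the markers, called list members, both lists of PVN hormones and lineage factors in full, and up to 4 members per family. Uncalled list members, Hs3st4, Sv2c and the pairs of neighbouring genes were named after their values were seen. Alternatives were other pseudocounts, filters, scalings, weights and covariates, and fits without a nucleus, batch, state, mouse or library.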

Additional observations from a re-analysis of the deposited data

Results flagged for a closer look

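In 4 of the 40 sets of PVN libraries examined (20 genes in fed and in fasted mice), 1 library stood apart from the rest of its set, where chance would give about 2. Crh was at 125.5 CPM in PVN-Fast-86, while the other fasted PVN libraries held 14.5 to 26.3 CPM. Isl1 was at 2.654 CPM in PVN-Fast-100, against 0.189 to 0.435 CPM in the others. Pou3f2 was at 79.89 CPM in PVN-Fed-111, against 126 to 133 CPM in the others. Ucn3 was at 7.372 CPM in PVN-Fed-125, against 18.3 to 25.5 CPM in the others. All 4 of these genes kept their calls when any library was left out.

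Sv2c was the only gene whose PVN difference changed with fasting at an adjusted p under 0.1 (limma), by 1.4962 on the log2 scale. In fasted mice the PVN libraries, at 63.0 to 119.5 CPM, lay above those of the DMH (34.15 to 50.28 CPM) and overlapped with those of the ARC (114.8 to 324.7 CPM) and VMH (54.12 to 153.1 CPM). In fed mice they lay at 14.67 to 36.66 CPM, below those of the ARC and VMH and overlapping with those of the DMH (21.02 to 72.55 CPM).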

How the results depend on the processing

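The counts of enriched and depleted genes moved with the treatment of low values. With a pseudocount of 2, 176 genes were enriched and 158 depleted, and with a mean of at least 5 CPM required, 188 and 211 of 7639 genes. When a log2 difference of at least 1 from each nucleus was also required, an alternative chosen after the data were seen, 110 genes were above each nucleus and 88 below. With array weights, 2 genes changed their PVN difference with fasting. Leaving out 1 library at a time gave 295 to 312 enriched, 314 to 365 depleted, 248 to 274 above each and 197 to 234 below each, and 0 to 4 genes for the change with fasting. That count was 0 without PVN-Fast-311, PVN-Fast-86 or PVN-Fed-125, 4 without PVN-Fast-101, 3 without DMH-Fed-125, and 2 without PVN-Fast-305, PVN-Fed-111, PVN-Fed-308 or VMH-Fed-111.

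Without the replicate block of mouse, 309 genes were enriched, 343 depleted, 269 above each, 222 below each and 1 changed with fasting. With mouse as a fixed replicate block the counts were 315, 350, 275, 234 and 1, so the pairing of nuclei within mice changed them little. Of 191 called genes named, 21 lost the call when some library was left out and 91 under some other alternative, and Th changed sign without the VMH (-0.3128). The 20 genes chosen by the size of their difference lost no call under any alternative run. They were also chosen for having no overlap between libraries, so that outcome was largely set by the choice. The cause of the lost calls and of the change of sign was not tested. Few reads stand behind a value near 1 CPM at these depths, so differences among such genes are the least certain.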
